A study of Mus musculus with 8 samples.

Results

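The cells described here were the 10% of each SN4741 library at 39°C with the highest p53 output, chosen by the share of a cell's UMIs (unique molecular identifiers, each standing for 1 captured RNA) that came from *Cdkn1a*, *Mdm2* and *Ccng1* together. They numbered 815 of 8133 eligible cells at 39°C (95, 239, 232 and 249 in replicates 1 to 4) and of 19125 cells deposited in all 8 libraries. A cell was eligible with at most 15% mitochondrial UMIs, 200 to 6000 genes and at least 5000 UMIs. The members were compared, within each library, with the lower 50% of the same ranking (474, 1192, 1157 and 1242 cells, the comparison cells), and the 3 score genes were left out of the tests across genes, except that each was tested in cells ranked by the other 2.

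SN4741 is reported to be a clonal mouse line from embryonic substantia nigra. It is labelled wild type and neural precursor cells, and it carries a temperature-sensitive SV40 T antigen (tsA58) behind a tyrosine hydroxylase promoter. Cells at 37°C were kept in 10% fetal bovine serum, whereas cells at 39°C had been moved, 24 hours after passage, to 0.5% serum for 48 hours, so that temperature and serum cannot be told apart. The line has an unstable, polyploid karyotype per the study, and copy number was not measured in these cells. The 4 libraries per temperature were single-cell 3' RNA-seq, and since nothing states that they came from separate cultures, p-values measure only the spread between these libraries. Large T antigen binds p53 in the permissive state; its own transcripts were not analysed here.

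p53 is a transcription factor that is held low by the ubiquitin ligase MDM2, itself a p53 target, and that accumulates when cells are stressed. It can also be freed to act when a viral protein that bound it is lost. Its targets stop the cell cycle, chiefly through the CDK inhibitor p21 encoded by *Cdkn1a*, promote cell death, and act in repair, metabolism and feedback on p53 itself. A transcript share of such targets in single cells is therefore a common readout of p53 output, not of p53 protein.

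The sequence that p53 binds is a pair of adjoining decamers, and its best matches in the promoters of the score genes and the other listed targets are shown because they mark which members carry the element close to a start site. Windows of 300 bases (250 before and 50 after a start) from RefSeq on GRCm38.p6 were searched for the p53 response element, allowing 2 mismatches, a spacer of at most 1 base and both decamers' core C and G; the element has the same form on both strands. Of 74 listed targets, 60 had a window, and 5 of these held a match, against 0.807% of 27025 genes with a window. *Mdm2* held none in its window, and other start sites and introns were not searched. The stretches below run 5′ to 3′ on the strand of the gene, with the element and any spacer in capitals and 10 flanking bases on each side except for *Gtse1*, for which only the element is given.
Cdkn1a (chr17:29090918-29090957, plus strand, 1 mismatch): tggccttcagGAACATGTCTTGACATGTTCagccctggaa
Ccng1 (chr11:40755452-40755491, minus strand, 1 mismatch): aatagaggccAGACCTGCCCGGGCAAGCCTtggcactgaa
Bax (chr7:45467069-45467109, minus strand, 2 mismatches, spacer 1): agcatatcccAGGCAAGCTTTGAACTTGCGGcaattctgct
Cd80 (chr16:38458812-38458851, plus strand, 2 mismatches): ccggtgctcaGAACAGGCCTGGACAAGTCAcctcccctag
Gtse1 (chr15:85859945-85859964, plus strand, 1 mismatch): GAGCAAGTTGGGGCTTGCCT
Across tested genes with a window, the element was present in 1.68% of 2138 genes called higher in members, in 0.817% of 2081 called lower and in 0.644% of 3418 not called. These shares are a description of the letters in the windows and not of binding.

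The score genes are given first as a description, since their values chose the cells. In members, *Cdkn1a* made up 3330, 3763, 3495 and 3588 UMIs per 1000000 UMIs (CPM) in replicates 1 to 4, against 1484, 1631, 1584 and 1559 in the comparison cells. *Mdm2* stood at 2681, 2373, 2324 and 2681 CPM against 744.5, 751.2, 686.7 and 746.7. *Ccng1*, which encodes cyclin G1, a p53 target that acts back on MDM2, stood at 985.6, 1031, 1002 and 1120 CPM against 580.4, 570.9, 539.6 and 595.6. The ratio was thus widest for *Mdm2* (3.43 on average) and narrowest for *Ccng1* (1.81), with 2.26 for *Cdkn1a*. *Cdkn1a* supplied 47.6 to 52.5% of the members' score UMIs, *Mdm2* 33.1 to 38.3% and *Ccng1* 14.1 to 15.2%.

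The 3 genes did not single out the same cells. Between 52.2 and 56.8% of members were in the top 10% of their library by *Cdkn1a* alone, 54.8 to 60.6% by *Mdm2* alone and 26.3 to 32.1% by *Ccng1* alone. Only 3, 13, 10 and 11 members per library were in the top 10% of all 3. No member lacked *Cdkn1a* or *Mdm2*, and 2 members of replicate 4 lacked *Ccng1*.

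The last member admitted had a share of 0.581, 0.609, 0.588 and 0.626% in replicates 1 to 4, and the first cell outside had 0.581, 0.609, 0.588 and 0.625%, so no gap separates members from the cells next to them. Members held a median of 151, 78, 92 and 66 score UMIs per cell, against 45, 24, 26 and 22 in the comparison cells. To see how much of the contrast was counting noise, each cell's UMIs were split at random into 2 equal parts, and the cells were ranked on one part and measured on the other. On the part not used, the ratio of members to the comparison cells was 1.83 to 2.05 for *Cdkn1a*, 2.56 to 3.10 for *Mdm2* and 1.5 to 1.69 for *Ccng1*, below the values on the same UMIs in every library.

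**Figure D1:**
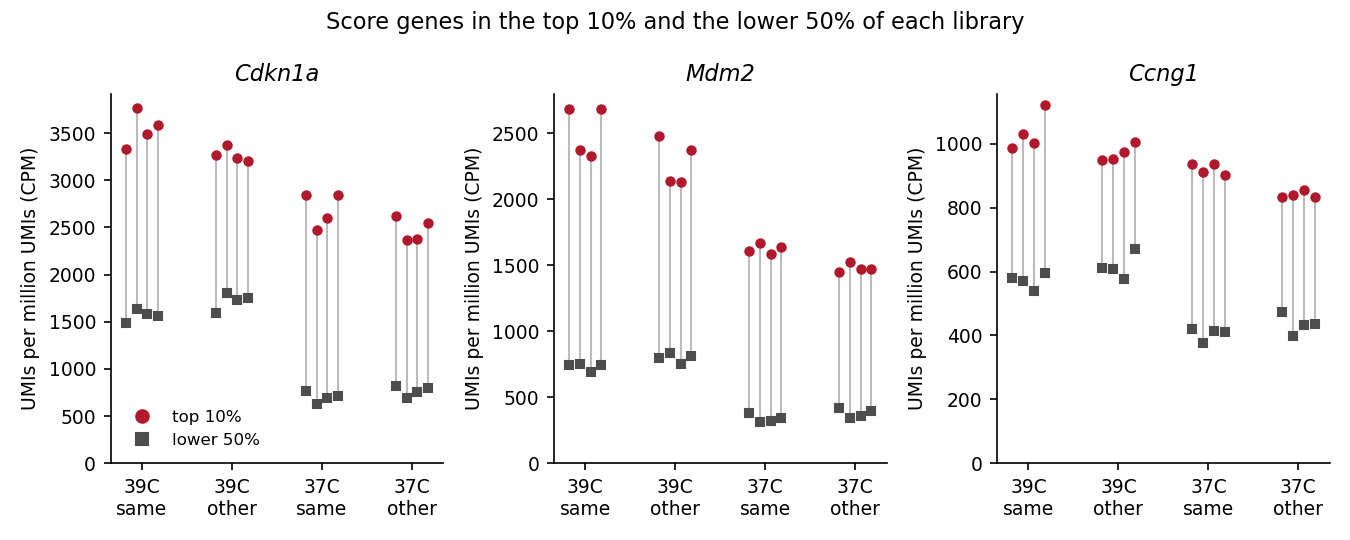
CPM (UMIs per 1000000 UMIs) of *Cdkn1a*, *Mdm2* and *Ccng1* in the top 10% (circles) and the comparison cells (squares) of each of 4 libraries per temperature, joined by a line per library. "Same" gives the UMIs used for ranking and "other" the part of the UMIs not used for it, on which *Mdm2* at 39°C still differed 2.56 to 3.10 times.

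When cells were ranked by 2 of the genes, the third could be tested, because the rule no longer used it. Ranked by *Mdm2* and *Ccng1*, the top 10% held 2516, 2759, 2722 and 2795 CPM of *Cdkn1a* against 1836, 2068, 1945 and 1975 (log2 difference 0.50 ± 0.03 SE, edgeR adjusted p = 1.81e-26). Ranked by *Cdkn1a* and *Ccng1*, *Mdm2* was 0.80 ± 0.03 higher (edgeR adjusted p = 5.52e-26), and ranked by *Cdkn1a* and *Mdm2*, *Ccng1* was 0.56 ± 0.03 higher (edgeR adjusted p = 2.25e-24). Each gene was therefore higher in cells chosen by the other 2, and in each case the 4 libraries of the 2 groups did not overlap. At 37°C the same 3 differences were 1.21, 1.42 and 0.84.

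Members were mostly in G1. By Seurat's phase calls, 93.0% ± 0.8 (SD, n = 4) of members were in G1 against 77.8% ± 2.3 of the comparison cells, and 2.61% ± 1.11 against 17.4% ± 0.9 were in S. In all 4 libraries G1 was higher (by 12 to 16.9 percentage points) and S lower (by 12.9 to 16.2 points), and the ranges did not overlap. G2M calls took 4.42% ± 1.01 and 4.82% ± 1.85, higher in 2 libraries and lower in 2, so no direction was detectable. With 4 libraries the two-sided exact sign-flip test cannot go below p = 0.13, the value it gave for G1 and S.

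Members also held more RNA. The median was 22177, 11165, 13599 and 9033 UMIs per cell in replicates 1 to 4, against 16040, 8413, 9339 and 7401 in the comparison cells, and genes per cell were 615 ± 184 higher (SD, n = 4). Their mitochondrial share was lower (7.48% ± 0.35 against 8.74% ± 0.35, lower in 4 of 4 libraries) and their *Malat1* share higher (5.47% ± 0.71 against 4.78% ± 0.65, higher in 4 of 4). For these 4 measures the exact sign-flip test gave p = 0.13. Replicate 1 stood apart with fewer eligible cells (949, against 2315 to 2485) and more UMIs per cell.

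Because depth and phase moved with membership, a comparison chosen after seeing the data paired each member with a comparison cell of its own library, of the same phase and of nearly the same UMI count. Medians then lay at 22203, 11183, 13605 and 9034 UMIs in the comparison cells. The mitochondrial share stayed lower in members in all 4 libraries. Below, a count or value under this matching is given where it lost a call or moved a count by over 1.5 times.

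Of 9640 genes tested on UMIs summed per library, 2671 (27.7%) were higher and 2640 (27.4%) lower in members at an adjusted p under 0.05, with a median log2 difference of -0.01 over all genes. Most of these differences were small, and 1035 and 1046 exceeded 0.5 on the log2 scale. DESeq2 called 3643 genes where edgeR called 5311. When cells were chosen on one part of the UMIs and measured on the other, 3947 were called. Under matching 4093 of 9604 were called (2100 higher and 1993 lower), of which 3907 were calls of the first fit in the same direction. Matching sums fewer comparison cells, and with equal cell numbers and no matching 4249 were called. Counts of list genes below are to be set beside the 27.7 and 27.4% of all genes, and counts under matching beside the matched counts. Over all genes, 29.9% were higher and 31.1% lower in members of all 4 libraries, so such agreement was common. The share of all genes whose groups did not overlap was not counted, and statements of overlap below only describe the genes named.

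The other p53 targets rose broadly. Of 71 listed beside the score genes, 70 were in the files and 61 passed the filter of 5 CPM on average. Of these, 49 were higher in members and 5 lower, where 27.7 and 27.4% of all genes were, and their median log2 difference was 0.46 against -0.01 over all genes. In single libraries 52 to 54 of the 61 stood higher in members, and their summed level was 1.44 to 1.52 times that of the comparison cells. Leaving out any 1 library left 46 to 48 called higher and 3 to 6 lower (3 without replicate 2), and ranking on one part of the UMIs left 41 higher. DESeq2 called 42 higher and 2 lower.

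All 15 listed genes of the apoptosis group rose. The group includes the BH3-only genes *Pmaip1* (Noxa) and *Bbc3* (Puma), the effector *Bax*, the death receptors *Fas* and *Tnfrsf10b*, and *Apaf1*, the core of the apoptosome. *Pmaip1* stood at 67.5, 48.4, 57.0 and 69.96 CPM in members against 34.7, 33.3, 31.3 and 28.7 in the comparison cells (log2 difference 0.91 ± 0.09, edgeR adjusted p = 1.85e-11). *Ei24*, first found as a gene induced by etoposide, was 0.77 ± 0.04 higher, and *Eda2r*, a receptor of the TNF family, 0.75 ± 0.06 higher. Neither gene's groups overlapped. The group's median was 0.60, and 14 of its genes remained higher under matching. *Bax*, which carries the element printed above, was 0.43 higher, whereas *Bbc3* was 0.28 higher.

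Among targets that stop the cell cycle, 6 of 8 tested rose and 1 fell. *Btg2* (chr1:134075170-134079120, minus strand), an antiproliferative cofactor, rose the most of all listed targets, at 774.8, 767.6, 833.4 and 951.0 CPM against 300.9, 350.6, 356.5 and 390.2 (log2 difference 1.25 ± 0.03, edgeR adjusted p = 3.86e-28). The 2 groups were far apart in every library. *Plk2* was 0.84 ± 0.05 and *Rprm* (reprimo) 0.80 ± 0.08 higher. *Gtse1*, which holds the element at its start and encodes a protein that restrains p53 in G2, was 0.66 higher. *Gadd45a*, in contrast, was lower by 0.41 (23.7 against 31.6 CPM on average), in all 4 libraries.

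Genes of p53 feedback split, with 3 of 6 higher and 1 lower, where 27.7 and 27.4% of all genes were. *Trp53inp1*, which promotes p53 phosphorylation and autophagy, stood at 389.7, 360.1, 347.9 and 410.4 CPM in members against 173.5, 158.6, 167.4 and 188.2 (log2 difference 1.13 ± 0.04). *Ppm1d*, encoding the phosphatase WIP1 that shuts the response off, was 1.07 ± 0.06 higher, and *Mdm4*, an MDM2 partner that inhibits p53, 0.75 ± 0.04 higher. For these 3 the libraries of the 2 groups did not overlap. *Trim24* was 0.24 lower, *Cop1* and *Rchy1* did not pass the test (0.06 and -0.14).

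In DNA repair and nucleotide supply, 3 of 5 tested genes rose and *Pcna* fell, where 27.7 and 27.4% of all genes did. *Ercc5*, a nuclease of excision repair, was 0.84 ± 0.04 and *Polk*, a translesion polymerase, 0.56 ± 0.04 higher. *Pcna*, the sliding clamp of replication, was at 11.6, 11.8, 15.9 and 15.7 CPM in members against 26.4, 30.8, 30.8 and 30.9 (log2 difference -1.11 ± 0.12). Under matching on phase and UMIs the difference of *Pcna* was -0.49.

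Of 14 tested targets in metabolism and redox control, 10 rose and *Pank1* fell (-0.54 ± 0.19). Under matching 8 rose and *Pank1* did not pass the test (-0.30, edgeR adjusted p = 0.342). *Sesn2*, a sestrin that restrains mTORC1, stood at 88.6, 88.3, 90.7 and 101.3 CPM against 45.0, 46.0, 43.5 and 46.2 (log2 difference 1.03 ± 0.06). *Dcxr*, a carbonyl reductase, was 0.89 ± 0.03 higher and *Sesn1* 0.76 ± 0.09 higher. Of 13 secreted, surface and other targets, 12 rose, led by the ubiquitin ligase *Trim32* (0.94 ± 0.10), the peptide transporter *Tap1* (0.91 ± 0.07) and the small GTPase *Rap2b* (0.61 ± 0.04). *Cd80*, which holds a weaker match to the element, was 0.26 higher.

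The summed level of the other targets rose with every step of the ranking. Over 10 equal bins of cells by score, it increased in 9 of 9 steps in each 39°C library, from 7472, 7243, 7098 and 7581 CPM in the lowest bin to 13749, 13053, 13085 and 13951 in the top one, a ratio of 1.80 to 1.84. The last step took the sum from 11878, 11689, 11736 and 12366 CPM to those values, while the share of cells in G1 was already between 93.5 and 95.4% in the bin before it. S genes fell over the same ranking to 0.417 to 0.464 of their level in the lowest bin. The rise was spread over the whole ranking.

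**Figure D2:**
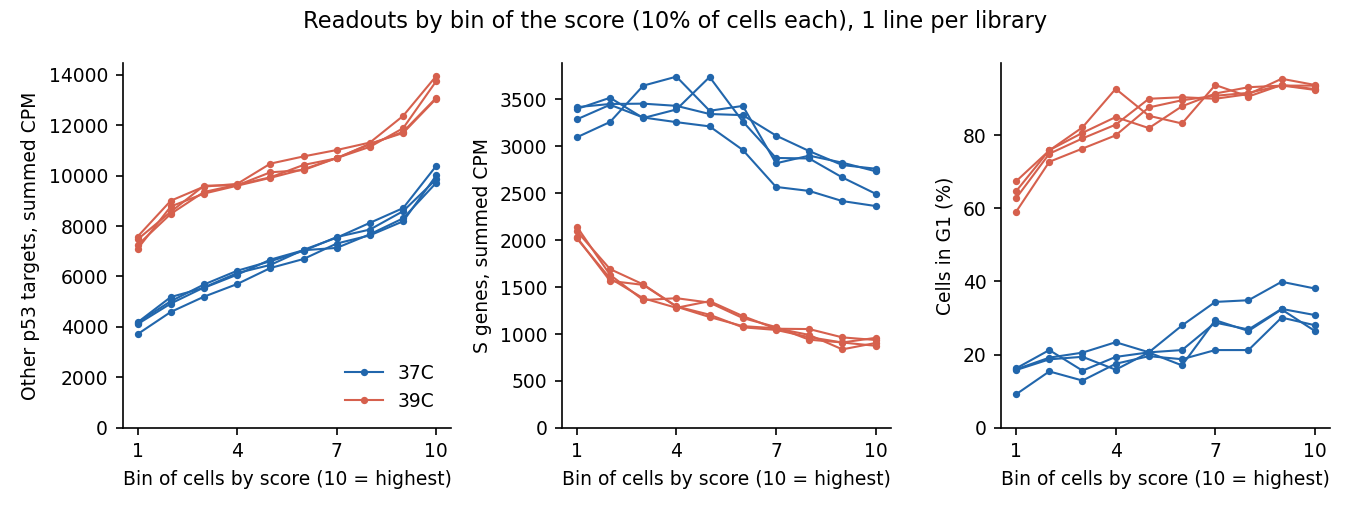
Summed CPM of the other p53 targets, summed CPM of Seurat's S genes and percentage of cells in G1 by bin of cells ranked by the score (10 bins), with 1 line per library (4 at each temperature). The target sum at 39°C rose in all 9 steps of each library, with ratios of top to lowest bin of 1.80 to 1.84, and G1 calls reached 93.5 to 95.4% in the bin before the top.

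*Trp53* itself moved little. It stood at 196.9, 188.1, 206.6 and 199.3 CPM in members against 167.1, 176.6, 175.3 and 175.4, a log2 difference of 0.19 ± 0.04 (edgeR adjusted p = 3.12e-04), and it was -0.025 when the score was built without *Mdm2* (edgeR adjusted p = 0.692). Among 15 tested genes of p53 and its regulators, 3 rose and 3 fell, where 27.7 and 27.4% of all genes did. *Cdkn2a*, whose locus encodes both p16 and the MDM2 antagonist p19ARF and whose 3' reads do not separate them, was at 810.6, 855.2, 921.7 and 823.4 CPM against 1076, 1071, 1158 and 1076 (log2 difference -0.36 ± 0.03), lower in all 4 libraries. *Chek2*, a kinase that phosphorylates p53, was -0.77 ± 0.20 at 5.1 against 8.8 CPM, and *Rpl5*, a ribosomal protein that can bind MDM2, -0.33 ± 0.03.

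Of 20 CDK inhibitors, Rb and E2F genes tested, 2 rose and 6 fell (3 under matching), where 27.7 and 27.4% of all genes did. *Cdkn2c*, encoding the CDK4/6 inhibitor p18, stood at 137.5, 118.6, 135.8 and 130.2 CPM against 55.2, 51.2, 50.4 and 54.5 (log2 difference 1.31 ± 0.06), and *Rb1* was 0.80 ± 0.05 higher. Neither overlapped between groups, and under matching they were 1.51 and 0.91 higher. *E2f6* was -0.78 ± 0.23 at 3.7 against 6.6 CPM, and it did not pass the test with DESeq2 (adjusted p = 0.0687).

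Replication and division genes were lower in members, less so once phases were matched. Of 12 tested cyclins and CDKs, 8 fell (4 under matching) and 3 rose. *Cdk4* stood at 168.2, 162.1, 173.5 and 160.7 CPM against 357.2, 336.6, 331.8 and 334.8 (log2 difference -1.03 ± 0.04) and was still -0.82 under matching. *Cdk1*, the mitotic kinase, was -1.38 ± 0.11 (-0.55 under matching), and *Ccna2*, cyclin A2, -1.29 ± 0.22 at 3.7 against 8.8 CPM and not tested under matching. *Ccna2* passed the filter only through the comparison cells. Of Seurat's S genes 35 of 39 tested fell (median -0.94), and of its G2M genes 31 of 41 fell while 8 rose (median -0.55). Under matching 21 and 16 were lower, with medians of -0.36 and -0.17. The phase calls were made from these lists, so their fall and the lower S share are not separate evidence.

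The S genes with the largest falls were *Dtl*, a substrate receptor of a ubiquitin ligase that acts on p21, *Uhrf1*, which maintains DNA methylation, and *Cdc45*, a helicase cofactor (-2.11 ± 0.16, -2.08 ± 0.19 and -1.93 ± 0.18). The largest among G2M genes were *Cenpf*, *Cdca3* and *Mki67* (-1.76 ± 0.11, -1.67 ± 0.25 and -1.58 ± 0.13). *Uhrf1*, *Cdc45* and *Cdca3* averaged 3.8, 3.9 and 2.4 CPM in members against 16.5, 15.1 and 7.8. They passed the filter only through the comparison cells, so their falls are a description. *Mki67* was at 6.0, 9.6, 10.1 and 14.0 CPM in members against 23.0, 27.2, 31.9 and 37.1 in the comparison cells. Its groups did not overlap, and under matching it was -0.84.

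The largest rises among genes with at least 50 CPM in either group were those of *Cnst*, *Wnt9a* and *Gas1*. *Cnst* (chr1:179546370-179627478), encoding consortin, a trafficking receptor for connexins, was at 67.5, 70.2, 64.7 and 82.7 CPM in members against 17.9, 14.8, 16.1 and 22.1 (log2 difference 2.02 ± 0.08, edgeR adjusted p = 3.99e-22). The Wnt ligand *Wnt9a* (chr11:59306928-59333552) was at 113.3, 102.9, 114.9 and 128.5 CPM against 29.6, 27.8, 29.4 and 31.7 (1.95 ± 0.06). *Gas1*, a growth arrest-specific surface protein and Hedgehog coreceptor, was at 199.9, 160.7, 104.8 and 193.3 CPM against 46.4, 41.2, 49.2 and 40.0 (1.85 ± 0.09). In none of the 3 did the groups overlap, though the rule that named them required 1 direction in all 4 libraries. The adhesion genes *Nectin1* and *Nectin4* were 1.73 ± 0.06 and 1.58 ± 0.07 higher, the desmosomal plaque gene *Dsp* 1.56 ± 0.10, the kinesin adaptor *Fez1* 1.67 ± 0.08 and the growth factor *Fgf18* 1.54 ± 0.07. Under matching these 8 differences were between 1.13 and 2.00.

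The largest falls at that level were those of *Spp1*, *Ankrd1* and *Cxcl12*. *Spp1* (chr5:104435118-104441050), encoding osteopontin, was at 138.0, 60.9, 90.1 and 96.7 CPM in members against 758.3, 727.7, 871.8 and 663.3 in the comparison cells (log2 difference -3.02 ± 0.07, edgeR adjusted p = 5.62e-29). *Ankrd1*, an ankyrin repeat gene induced by YAP, was at 28.7, 18.9, 24.2 and 14.4 CPM against 123.1, 103.7, 102.7 and 99.98 (-2.31 ± 0.09). The chemokine gene *Cxcl12* was at 21.1, 18.9, 22.4 and 14.4 CPM against 83.8, 80.1, 74.8 and 80.7 (-2.03 ± 0.09). The groups of these 3 did not overlap, but the rule that named them required 1 direction in all 4 libraries. *S100a4* (-1.74 ± 0.07), *Thbs1* (-1.57 ± 0.07), the replicative helicase subunit *Mcm3* (-1.46 ± 0.07), the chromatin remodeler *Hells* (-1.43 ± 0.09) and *Lmo7* (-1.41 ± 0.07) followed. Under matching *Mcm3* and *Hells* were -0.87 and -0.88, while *Spp1* was -2.75 and *S100a4* -1.72.

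**Figure D3:**
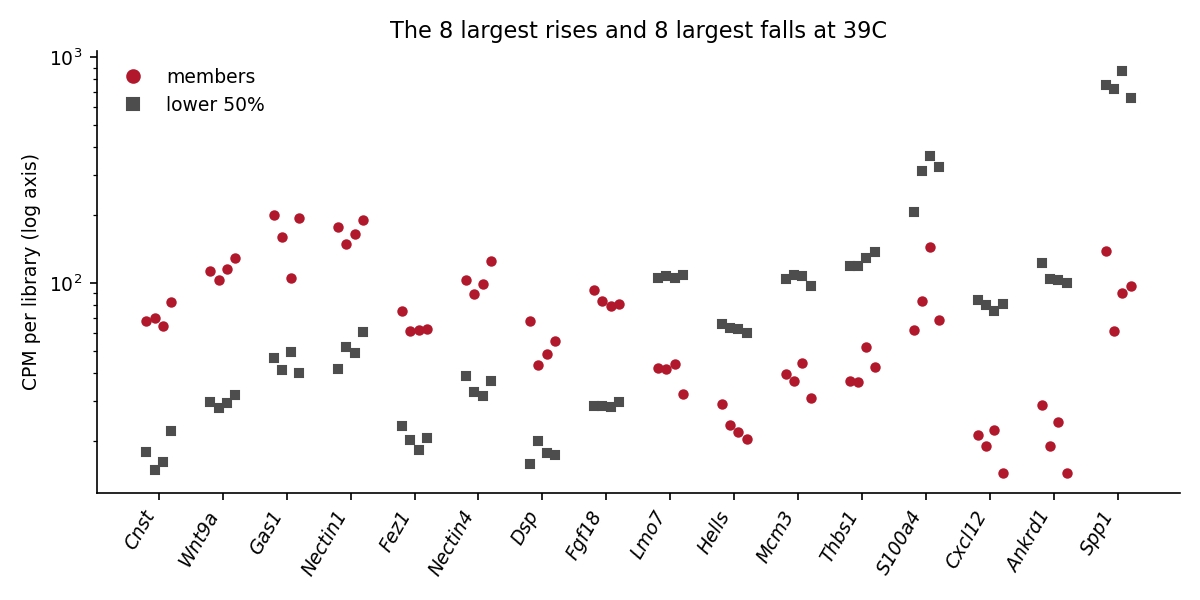
CPM per library (log axis) of the 8 largest rises and 8 largest falls at 39°C in members (circles) and the comparison cells (squares), with 4 libraries per group. The groups of each gene do not overlap, with differences from 2.02 for *Cnst* to -3.02 for *Spp1* on the log2 scale.

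Matrix and contractile genes were lower. Of 13 matrix genes tested, 10 fell and 0 rose with edgeR (median -0.60), and 0 rose at an unadjusted p under 0.05 or with DESeq2. *Fn1*, fibronectin, was at 138.0, 130.0, 142.2 and 134.0 CPM in members against 336.7, 311.9, 312.6 and 359.4 (log2 difference -1.27 ± 0.04), and *Col6a1* was -1.43 ± 0.16. Of 11 contractile genes under serum response factor, 9 fell (median -0.80) and 1 rose, a call lost under matching. *Acta2*, smooth muscle actin, was at 2.0, 6.4, 9.8 and 3.0 CPM against 29.4, 51.0, 30.0 and 53.1 (-2.80 ± 0.18), and *Mylk* -0.86 ± 0.14. *Tagln* (-1.72 ± 0.25) was low throughout, and its groups overlapped across libraries. It passed the filter only through the comparison cells, so its fall is a description.

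Most tested genes of a list linked to senescence were lower. The list joins secreted factors with nuclear proteins such as *Lmnb1*, *Hmgb1* and *Hmgb2*, and no single direction is expected of all its genes. Its counts therefore give no reading of senescence, of which p21 is also counted a marker. Of 15 tested, 12 fell and 2 rose (1 under matching; median -0.86 in both), with the chemokine genes *Cxcl12*, *Ccl7* (-1.58 ± 0.16) and *Ccl2* (-1.47 ± 0.13) lowest. *Ccl2* was at 11.1, 11.8, 16.2 and 25.4 CPM in members and 51.4, 30.7, 56.3 and 40.4 in the comparison cells, without overlap. Of 10 interferon and antigen presentation genes, 4 fell and 2 rose, where 27.4 and 27.7% of all genes did. *Ifit3* (-1.41 ± 0.17) and *Tapbp* (-0.98 ± 0.09) were lower and *Ifi27* (0.44 ± 0.05) higher.

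Immediate-early genes were higher in part: 11 of 17 tested rose and 2 fell (median 0.60, 0.54 under matching), where 27.7 and 27.4% of all genes did. *Fos* was at 44.8, 32.1, 31.0 and 38.2 CPM against 15.4, 17.7, 16.5 and 19.6 (log2 difference 1.04 ± 0.11), and *Fosl1* was 1.00 ± 0.06 higher. *Myc* moved the other way (-1.02 ± 0.17), at 7.0 against 14.6 CPM on average. Cells were trypsinized before capture, and the part of handling in these levels was not tested.

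Other stress lists were mixed and are set beside the 27.7% of all genes called higher and the 27.4% called lower. Among ATF4 targets 7 of 19 rose and 7 fell, and the 3 largest changes were falls of serine synthesis and cystine uptake genes, *Phgdh* (-2.02 ± 0.13), *Psat1* (-1.45 ± 0.14) and *Slc7a11* (-2.14 ± 0.28, at 1.8 against 8.6 CPM). *Slc7a11*, and *Gsta4* below, passed the filter only through the comparison cells, so their falls are a description. Of 15 NRF2 targets and metallothioneins 8 fell and 3 rose, with *Gsta4* at 4.0, 2.8, 0.92 and 4.2 CPM in members against 24.5, 26.3, 27.1 and 23.0 (-3.18 ± 0.20), *Mt2* at -1.30 ± 0.09 and *Gstm1* at -0.68 ± 0.04. Of 18 heat shock genes 10 fell and 4 rose (2 under matching). *Cryab*, a small heat shock protein, stood at 809.6, 942.9, 939.4 and 929.8 CPM against 400.1, 483.6, 440.5 and 477.5 (1.01 ± 0.03), whereas *Hsph1* and *Hspd1* were -0.71 ± 0.08 and -0.55 ± 0.04. Of 20 sterol synthesis genes 6 fell, *Cyp51* and *Fdps* the most (-0.69 ± 0.08 and -0.58 ± 0.09), and 2 rose (4 under matching), of which *Acat2* was 0.57 ± 0.14 higher.

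The translation machinery moved slightly. Of 77 ribosomal protein genes by symbol, 32 fell and 15 rose (6 under matching), where 27.4 and 27.7% of all genes did, with a median of -0.03. *Rpl21* and *Rpl41* were -0.39 ± 0.03 and -0.37 ± 0.02, and reads of such genes may be shared with their many pseudogenes. The exception by size was *Rps27l* (0.42 ± 0.02, at 1654, 1986, 1997 and 2021 CPM against 1224, 1513, 1475 and 1512), a ribosomal protein paralog that is itself a p53 target. Of 20 ribosome biogenesis genes 10 fell and 2 rose (median -0.20), and the 2 lost their call under matching. Among those that fell were *Dkc1* (-0.71 ± 0.10), *Nop56* (-0.55 ± 0.06) and *Nop58* (-0.39 ± 0.06, and -0.15 under matching). Of 13 mitochondrially encoded genes 11 fell and 0 rose with edgeR (median -0.16), also 0 at an unadjusted p under 0.05 or with DESeq2. The largest falls were those of *mt-Nd3* (-0.46 ± 0.02), *mt-Nd1* (-0.37 ± 0.02) and *mt-Co3* (-0.31 ± 0.02), beside the lower mitochondrial share. The groups of *mt-Nd3* overlapped across libraries.

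**Figure D4:**
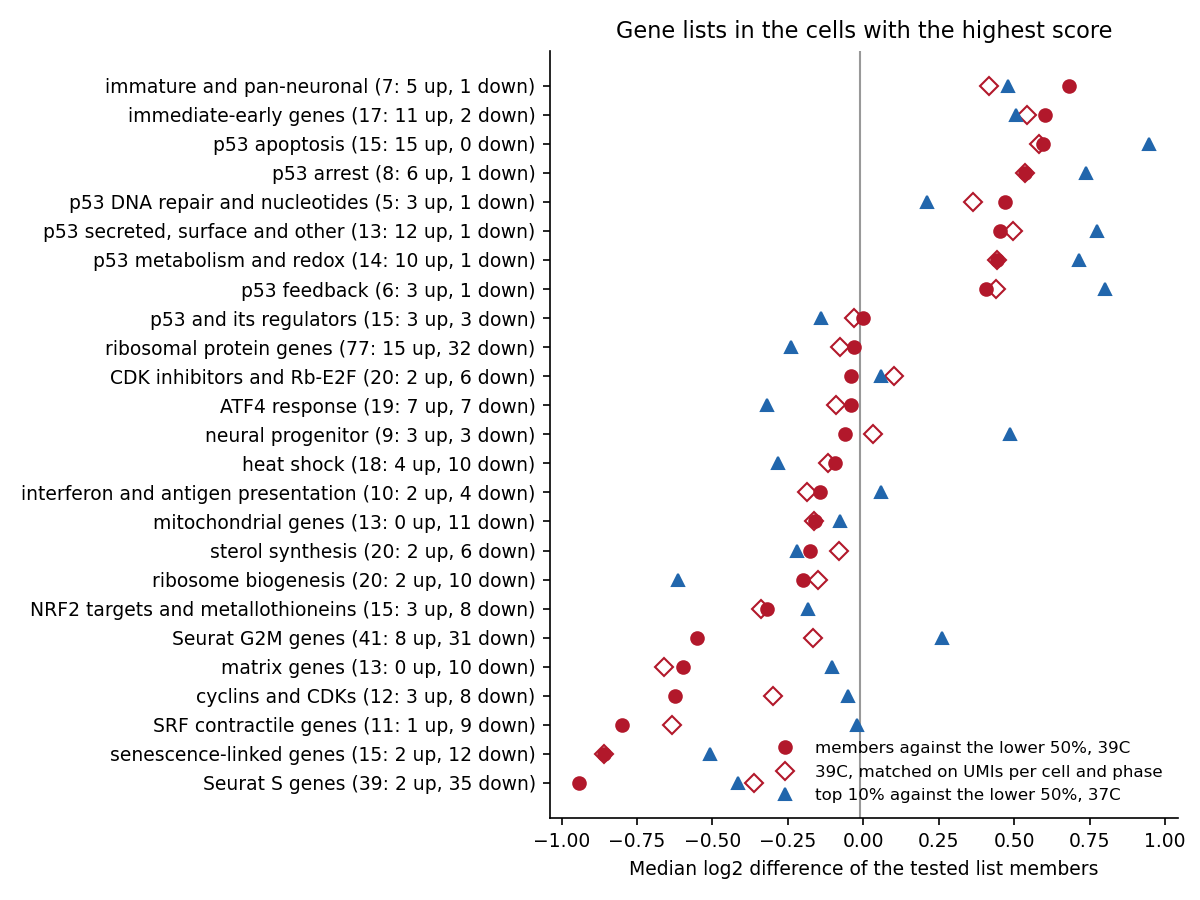
Median log2 difference of each gene list's tested genes in members against the comparison cells at 39°C (filled circles), the same under matching on UMIs and phase (open diamonds) and in the top 10% against the comparison cells at 37°C (triangles), with the number tested, higher and lower at 39°C beside each name. The vertical line marks the median of all genes at 39°C (-0.01), and S genes moved from -0.94 to -0.36 under matching.

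Neural markers gave no common direction. *Nes*, the progenitor filament nestin, was at 61.9, 76.2, 69.6 and 67.4 CPM in members against 133.3, 140.3, 145.9 and 148.2 (log2 difference -1.04 ± 0.06), while *Notch1* was at 709.4, 683.2, 675.5 and 708.9 CPM against 336.8, 339.8, 347.1 and 357.4 (1.01 ± 0.03). Both differences held in 4 of 4 libraries without overlap. *Hmga2* was -0.67 ± 0.04. Of 9 tested progenitor genes 3 rose and 3 fell, where 27.7 and 27.4% of all genes did, and *Sox1* and *Hes5* were at 0 UMIs at 39°C.

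Of 22 immature and pan-neuronal genes only 7 passed the filter, of which 5 rose (3 under matching) and *Map2* fell (-1.05 ± 0.10). *Celf5*, an RNA-binding protein gene, was at 291.0, 287.1, 263.6 and 301.4 CPM against 132.9, 137.7, 130.9 and 134.9 (1.09 ± 0.04). The calcium channel gene *Cacna1b*, counted among the 5, was 1.69 ± 0.21 at 9.9 against 3.1 CPM. It passed the filter only through its level in members, so its rise is a description. *Snap25*, *Syt1*, *Dcx* and *Elavl4* were at 0 UMIs in members and the comparison cells.

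Most markers of other cell types did not pass the filter of 5 CPM. Of 11 dopaminergic genes, 2 passed the filter and 1 fell: *Foxa2*, at 8.1, 5.3, 8.0 and 5.1 CPM against 18.7, 15.1, 18.2 and 16.7 (-1.37 ± 0.16). *Slc6a3*, *Pitx3*, *Ddc* and *Lmx1a* were at 0 UMIs, and *Th* had 0 UMIs in members and 2 in the comparison cells. The summed levels of the 10 glial genes were 6.0 to 9.8 CPM in members and 10.6 to 11.5 in the comparison cells, and of the 6 endothelial genes 0.304 to 2.5 and 0.575 to 1.20, with 0 of either list passing the filter. Of 9 immune genes *Cd68*, a lysosomal protein, passed and fell (-0.82 ± 0.11), and *C1qa*, *Tyrobp* and *Cd3e* were at 0.

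The same rule at 37°C gave 790 of 7882 eligible cells, and its comparison shows which of these features differed between temperatures. The share that admitted a cell was 0.601% ± 0.021 at 39°C and 0.425% ± 0.014 at 37°C (SD, n = 4 libraries each). Between the top 10% and the comparison cells at 37°C the mean ratio was 3.83 for *Cdkn1a*, 4.81 for *Mdm2* and 2.28 for *Ccng1*. These shares and ratios chose the cells and are a description.

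Phases of high-scoring cells differed between temperatures. At 37°C the top 10% was 57.8% ± 4.8 G2M against 28.8% ± 2.0 in its comparison cells, where at 39°C no direction was detectable, and S calls were 11.4% ± 1.5 against 53.3% ± 1.8. The difference of differences was -29.4 percentage points for G2M and 27.2 for S (two-sided exact permutation test on 70 ways to divide the 8 libraries, p = 0.0286, its smallest possible value, adjusted p = 0.0381 over 8 measures). For G1 it was 2.22 points (exact permutation p = 0.343). The comparison cells at 39°C held 17.4% ± 0.9 S calls, so a fall in points as large as at 37°C was not possible there. Given the fall at 37°C, the sign of the S value was thus fixed, and no conclusion is drawn from its p. UMIs per cell at 37°C were lower in the top 10% in all 4 libraries (differences of -1973 to -456.5), where members at 39°C had more. The difference of differences was 4584 UMIs (exact permutation p = 0.0286, adjusted p = 0.0381).

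At 37°C 2611 of 9641 tested genes were higher (27.1%) and 2505 lower (26%) in the top 10%, and of 62 tested other p53 targets 51 were higher and 2 lower (median log2 difference 0.80). An interaction test over all 16 sums called 1145 of 9718 genes (11.8%) with a larger and 1860 (19.1%) with a smaller log2 difference at 39°C. Larger and smaller are signed here and below, larger meaning more positive at 39°C and smaller more negative. A fall can therefore be weaker at 39°C where the value is called larger, and stronger where it is called smaller. Among G1 cells alone 2301 genes were called at 37°C in place of 5116. In place of 3005 for the interaction, 1001 were called among G1 cells alone, 1803 with DESeq2, 1651 on split counts and 1717 under matching. G1 cells alone and matching sum fewer cells, and with equal cell numbers and no matching 2060 were called. For the other p53 targets the first interaction fit called 2 of 62 larger and 36 smaller, with a median of -0.43 against -0.05 over all genes. Among G1 cells alone 15 of 61 were smaller and 0 larger with edgeR (3 larger at an unadjusted p under 0.05; DESeq2 was not run on these cells), where 5.98 and 4.43% of all genes were, and under matching 33 of 61 were smaller and 1 larger, where 12.3 and 5.40% were. The comparison cells at 39°C held 8987 to 9298 CPM of these targets, against 5168 to 5607 at 37°C. Whether this bears on the smaller differences was not tested.

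Targets of one group behaved unequally in this respect. *Trp53inp1* was 2.21 higher at 37°C and 1.13 at 39°C (interaction -1.08, edgeR adjusted p = 4.33e-13), and *Mdm4* 1.54 and 0.75 (interaction -0.79). *Ppm1d* was 1.08 and 1.07, with an interaction of -0.01 (edgeR adjusted p = 0.950), and *Plk2* 0.66 and 0.84, with an interaction of 0.18 (edgeR adjusted p = 0.106). In the apoptosis list 9 of 15 were smaller at 39°C, *Pmaip1* among them (1.75 and 0.91), which lost its call among G1 cells alone (interaction -0.54, edgeR adjusted p = 0.198). *Trim32* had a larger difference at 39°C (interaction 0.38). It lost its call among G1 cells alone (0.46, edgeR adjusted p = 0.203) and under matching (0.28, edgeR adjusted p = 0.325), both of which sum fewer cells.

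**Figure D5:**
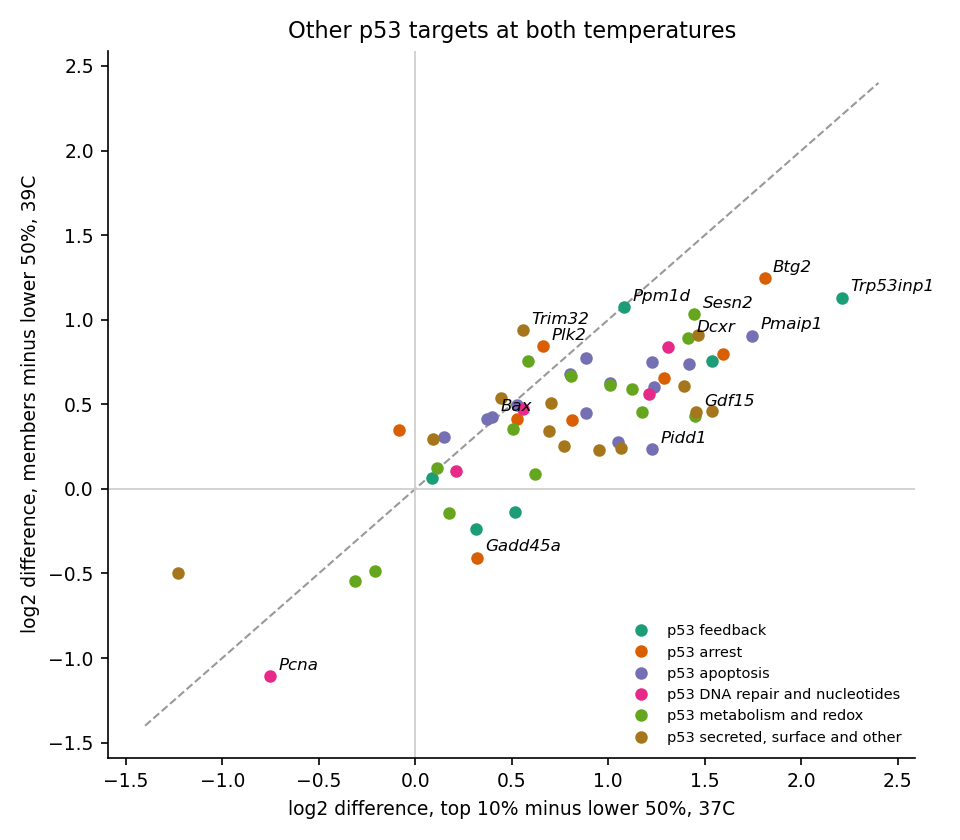
Log2 difference of each other p53 target in members against the comparison cells at 39°C (vertical) and in the top 10% against the comparison cells at 37°C (horizontal), colored by group, with a dashed line of equality. Most points lie below the line, such as *Trp53inp1* (2.21 at 37°C and 1.13 at 39°C), with *Trim32* and *Plk2* above it.

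Outside p53 targets, *Tlr2* and *Gas1* had the largest differences of those larger at 39°C. *Gas1* was at 105.3 to 199.4 CPM in members and 40.1 to 49.1 in the comparison cells at 39°C, but at 23.5 to 35.4 and 41.1 to 46.2 at 37°C, so its direction turned (interaction 2.32, edgeR adjusted p = 1.76e-12, and 2.69 under matching). *Tlr2*, a receptor of innate immunity, was at 16.1 to 32.1 CPM in members and 3.0 to 4.4 in the comparison cells at 39°C, and at 5.2 to 8.4 and 5.2 to 7.2 at 37°C (interaction 2.38, and 1.78 under matching). Its level in the comparison cells at 39°C lay under 5 CPM, so its value is a description. *Tsr1* and *Srm*, of ribosome maturation and polyamine synthesis, and *Tmem238* followed, with interactions of 1.40, 1.34 and 1.32. *Srm* was lower at both temperatures, by -0.34 at 39°C and -1.69 at 37°C. All 5 remained called among G1 cells alone.

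The largest differences in the other direction were those of *Myl9* and *Acta2* (-3.32 and -3.02) and of the cycle genes *Esco2*, *Pbk* and *Pclaf* (-3.17, -2.56 and -2.41). Under matching the 3 cycle genes were -1.63, -1.15 and -1.15, and *Pbk* lost its call (edgeR adjusted p = 0.0869). *Myl9*, a myosin light chain, was at 0 to 0.72 CPM in members and 2.9 to 4.2 in the comparison cells at 39°C, and at 16.4 to 28.0 and 16.4 to 21.7 at 37°C. *Esco2* and *Pbk* also passed the filter through their levels at 37°C. Among G1 cells *Acta2* remained called (-2.14, edgeR adjusted p = 0.00120), *Myl9* did not (-2.0, edgeR adjusted p = 0.0839), and *Pclaf* was 1.40 (edgeR adjusted p = 0.331). By list, 16 of 20 ribosome biogenesis and 60 of 77 ribosomal protein genes had a more positive log2 difference at 39°C, where 11.8% of all genes did. Their medians were -0.20 and -0.03 at 39°C and -0.61 and -0.24 at 37°C, so both lists fell less at 39°C. A more negative difference was found for 9 of 12 contractile and 11 of 14 matrix genes, where 19.1% of all genes had one. At 37°C the contractile genes had a median of -0.02, with 3 of 12 higher and 3 lower. The matrix genes had one of -0.11, with 2 of 15 higher and 6 lower, where 27.1 and 26% of all genes were.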

How the data were processed

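Single-cell RNA-seq was analysed in 8 libraries of SN4741 cells, 4 at 37°C and 4 at 39°C, grouped by their titles. Per the labels, cells were captured with the Chromium 3' V3 kit. Per the submitters' processing notes, Cell Ranger 3.0.1 and mm10 were used, and the authors deposited, for each library, 1 matrix of unnormalized UMI counts (31053 genes by cells). Libraries held 22988911 to 33652656 UMIs. At most 5 barcodes were shared between any 2 libraries.

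Cells were filtered at the study's limits (15% mitochondrial UMIs, 200 and 6000 genes) and at 5000 UMIs, so that 1 UMI weighs little in a share. Scrublet (scanpy 1.11.5) gave 2 cells a score over 0.5 and so did not work as a caller. Leaving out the 371 cells with the highest scores was an alternative. Phases came from Seurat 5.3.0 CellCycleScoring. The members, the gene lists and the rule for named genes were chosen with earlier results of these data known.

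Counts were summed per library over members and over the lower 50%, cells not being replicates. A gene needed 5 CPM on average over the sums and was tested with edgeR 4.0.16 (R 4.3.3), TMM factors, glmQLFit and glmQLFTest, with the library as a block because both sums of a library come from the same capture. Genes under 5 CPM in 1 group passed through the other group, so their differences are a description, also where they enter the counts of a list. They include *Cacna1b*, *Tlr2*, *Slc7a11*, *Ccna2*, *E2f6*, *Uhrf1*, *Cdc45*, *Cdca3*, *Pclaf*, *Gsta4* and *Tagln*. P-values were adjusted by Benjamini-Hochberg over all genes tested. CPM per gene are UMIs per 1000000 UMIs of tested genes, and SE is the one implied by the test. Sums held 1979335 to 12363852 UMIs at 39°C. DESeq2 1.42.0 was an alternative. Shares and medians were compared over libraries with two-sided exact tests (scipy 1.17.1).

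Named were up to 3 called genes of each of 29 lists by size, the 8 largest rises and falls that reached 50 CPM in either group and kept 1 direction in all 4 libraries, the 5 largest interaction differences each way with at least 20 CPM, and *Trp53*, *Mki67*, *Nes*, *Celf5* and *Foxa2*. Further p53 targets given with a value were named after their values were seen. Alternatives were other normalizations and filters, other cell limits, scores without 1 gene, thinning to 5000 UMIs, G1 cells alone, count splitting, equal cell numbers and leaving out each library. The procedure was tested on simulated data. Gene positions are from GENCODE M21 on GRCm38, and promoter sequences from RefSeq (GRCm38.p6).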

Additional observations from a re-analysis of the deposited data

Results flagged for a closer look

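In 12 of 213 sets of 4 library values, 1 library lay far from the other 3, and chance alone marks about 1 in 20 such sets. Per-library log2 differences at 39°C stood apart in replicate 3 for *Ercc5* (0.72), *Tagln* (-0.31) and *Thbs1* (-1.30) and in replicate 1 for *Fos* (1.51) and *mt-Nd3* (-0.41). At 37°C they stood apart in replicate 1 for *Cxcl12* (-0.62), *Acat2* (-0.18) and *Hmga2* (-0.80), in replicate 2 for *Ccl7* (0.47) and *Map2* (0.17) and in replicate 3 for *Rpl5* (-0.42). The UMIs per cell of the top 10% minus the lower 50% at 37°C stood apart in replicate 2 (-1973).

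The other flags are contrasts of the top 10% with the lower 50% that differed between temperatures, by the edgeR interaction test for genes (log2 difference at 39°C minus that at 37°C) and by the exact permutation test for measures of cells. Of the 80 genes, 65 kept their call under matching on UMIs and phase, and 39 of the 77 that could be tested did among G1 cells alone, where 9 changed sign. UMIs per cell differed by 4584, genes per cell by 646.2, the mitochondrial share by -1.46 percentage points, the ribosomal protein share by 1.82 points, S by 27.2 points and G2M by -29.4 points. The sign for S was fixed by the low S share of the comparison cells at 39°C.

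Most named p53 targets had the smaller difference at 39°C: *Trp53inp1* (-1.08), *Pmaip1* (-0.84), *Rprm* (-0.80), *Mdm4* (-0.79), *Rap2b* (-0.79), *Polk* (-0.65), *Btg2* (-0.56), *Tap1* (-0.56), *Dcxr* (-0.53), *Eda2r* (-0.48), *Ercc5* (-0.47) and *Sesn2* (-0.42). *Trim32* (0.38) and *Rps27l* (0.19) had the larger one, though both lost the call under matching, and *Ppm1d*, *Plk2*, *Sesn1* and *Ei24* did not pass the test (-0.01, 0.18, 0.17 and -0.12). Of those with the smaller difference, *Pmaip1*, *Rprm*, *Tap1*, *Eda2r*, *Ercc5* and *Sesn2* lost the call among G1 cells alone, which sum fewer cells, but not under matching. *Trp53* itself (0.39) had the larger difference at 39°C, and its regulators were divided: *Chek2* (-1.39, but -0.31 and not called among G1 cells), *Cdkn2a* (-0.37) and *Rpl5* (0.14).

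Cycle genes formed the next set, with *Esco2* (-3.17), *Pbk* (-2.56), *Pclaf* (-2.41), *Mki67* (-2.04), *Cdca3* (-1.72), *Cenpf* (-1.63), *Cdk1* (-1.52), *Dtl* (-1.52), *Cdc45* (-1.52), *Ccna2* (-1.21), *Uhrf1* (-1.06), *Mcm3* (-0.68), *Hells* (-0.64), *Cdk4* (-0.64) and *Rb1* (-0.52), and *Cdkn2c* (0.31) the other way. Among G1 cells *Cdc45*, *Cdk4* and *Rb1* alone of these kept the call, *Mki67* being 0.30 and *Cdk1* -0.48, and *Esco2*, *Pbk* and *Ccna2* could not be tested. Contractile, matrix and secreted genes were also more negative at 39°C: *Myl9* (-3.32), *Acta2* (-3.02), *Tagln* (-2.27), *Ankrd1* (-1.76), *Mylk* (-1.64), *Spp1* (-1.29), *Col6a1* (-1.28), *Cxcl12* (-1.11), *S100a4* (-1.07), *Ccl7* (-1.04), *Fn1* (-0.99), *Lmo7* (-0.94) and *Thbs1* (-0.59).

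More positive differences at 39°C were found for *Tlr2* (2.38), *Gas1* (2.32), *Tsr1* (1.40), *Srm* (1.34), *Tmem238* (1.32), *Cnst* (1.14), *Nop58* (0.67), *Nop56* (0.64), *Hspd1* (0.53), *Acat2* (0.52), *Dkc1* (0.51), *Hsph1* (0.39) and *Fosl1* (0.36). Of these, *Srm*, *Nop58*, *Nop56*, *Hspd1*, *Dkc1* and *Hsph1* were lower at both temperatures and fell less at 39°C. More negative differences were found for *Cd68* (-1.92), *Gsta4* (-1.73), *Ifit3* (-1.72), *Nectin4* (-1.61), *Map2* (-1.53), *Fgf18* (-1.05), *Phgdh* (-1.02), *Notch1* (-1.01), *Celf5* (-0.92), *Gstm1* (-0.82), *Fos* (-0.80), *Tapbp* (-0.69), *Mt2* (-0.67), *Foxa2* (-0.64), *Psat1* (-0.51), *Nes* (-0.42), *mt-Co3* (-0.35), *mt-Nd3* (-0.34), *Fdps* (-0.30) and *mt-Nd1* (-0.089). Some of these were falls that were stronger at 39°C, such as *Gsta4* (-3.18 against -1.45 at 37°C) and *Phgdh* (-2.02 against -1.01), while *Notch1* and *Celf5* were rises that were weaker. *Cd68* (-0.82 against 1.10 at 37°C), *Map2* (-1.05 against 0.48) and *Gstm1* (-0.68 against 0.14) turned direction. So did, among the other flagged genes, *Gas1*, *Tsr1*, *Tmem238*, *Trp53*, *Chek2*, *Mki67*, *Acta2*, *Tagln* and *Mylk*, each called at both temperatures.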

How the results depend on the processing

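At 39°C the number of called genes stayed within 1.5 times 5311 under all 27 alternatives, and the other p53 targets called higher numbered 41 to 50. Of 97 named genes tested at 39°C, 88 kept direction and call in every alternative that tested them. In all, 2569 of 2586 values did, 16 lost the call and 1 reversed: *Trp53*, at -0.025 with the score without *Mdm2*. At 39°C *Mki67*, *Cenpf*, *Uhrf1* and *Cdc45*, among others, were not tested among G1 cells alone. *Ccna2* and *Cdca3* were tested neither there nor under matching. At 37°C 2301 genes were called among G1 cells only. The interaction called 1803 genes with DESeq2, 1001 among G1 cells only, 1651 on split counts and 1717 under matching on UMIs and phase, an alternative chosen after seeing the data, where 3005 were called at first. Matching took the UMI difference to -12.6 by construction. The ribosomal protein share of members minus the lower 50% was -0.295 percentage points but 0.489 with a denominator without mitochondrial and ribosomal UMIs and 0.629 with the score without *Cdkn1a*. The G2M difference of -0.392 points turned to 0.986 in the top 5% of cells, 0.285 against all other cells, 0.980 when ranked within 5 bins of UMIs per cell, 0.279 with that other denominator, 1.12 with no minimum of UMIs, 0.783 and 0.457 with the score without *Cdkn1a* or *Ccng1* and 0.437 with equal cell numbers, and it ranged from -0.802 to 0.0571 when each replicate was left out, 0.0571 being the value without replicate 3. The causes were not tested. The threshold difference was 0.168 to 0.183 when each library was left out, and no test is read from it because the rule used these values.

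The library is the block because both sums of a pair come from 1 capture. Without it, 4674 genes were called at 39°C, 4770 at 37°C, 2299 for the interaction, and 46 other p53 targets were higher. Replicate numbers shared between 37°C and 39°C pair nothing in the labels, and no test used them. Genes near 5 CPM rest on few UMIs, and *E2f6*, at 3.7 against 6.6 CPM, lost its call in 4 alternatives. The cause was not tested.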
